A study of Mus musculus with 90 samples.

Results

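The genes described here are 9 markers of myelin and of the oligodendrocytes that make it, Mbp, Mobp, Mal, Cldn11, Cnp, Mag, Mog, Opalin and Ermn, taken by name from a table of 19962 genes measured in mouse brain sections. All 9 were found in the table and all 9 matched a gene of the RefSeq assembly GRCm38.p6. Sections of 5 µm from formalin-fixed, paraffin-embedded brain were hybridised with the GeoMx mouse Whole Transcriptome Atlas probes, whose tags are cleaved off by light in each selected area of interest (AOI), a small region that can hold several cell types, and then counted by sequencing. The 90 AOIs came from 6 mice under chronic social stress (CSS) and 4 control (ctrl) mice, 10 in all, and lay in the choroid plexus (CP), the hippocampal fields CA3 and CA1, the motor cortex (MC) and the somatosensory cortex (SS). Of these AOIs 46 were labelled p16 high and 44 p16 low, p16 being the cell cycle inhibitor encoded by Cdkn2a. The sources used here give neither the strain, sex and age of the mice nor how the p16 label was set.

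Oligodendrocytes wrap axons of the central nervous system in many turns of membrane. In compact myelin the cytoplasm is squeezed out and the membrane faces adhere, while Cnp and Mag lie in the looser parts of the sheath. The genes for these proteins are switched on together late in the life of the cell, under transcription factors such as Sox10 and Myrf. In mouse brain the white matter holds most of the myelin, and grey matter such as the cortex and the hippocampal fields holds less. The choroid plexus is an epithelium that secretes cerebrospinal fluid and is not a myelinated tissue.

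Each AOI had been scaled by the authors to a gene median of 22.067 units of signal. Counts, recovered from the even steps between the values of an AOI, ran from 184469 to 2098984 per AOI, and the negative control probe, which measures background, had a signal of 10.785 to 18.143. Mbp, Mobp, Cldn11 and Cnp were above the negative probe of the AOI in all 90 AOIs. Mag and Ermn were above it in 88, Mog in 87 and Opalin in 86. Mal was above it in 51 of 90 AOIs, with counts of 1 to 85, so most statements on Mal concern a signal near background. In these areas fewer oligodendrocytes and less RNA per oligodendrocyte cannot be told apart.

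The marker lists followed the labelled subregions. A list of 14 choroid plexus epithelium genes summed to 59956 to 116107 in the CP AOIs of a mouse, against 246 to 750 in CA3, the next highest subregion. A list of 8 CA3 pyramidal cell genes had 6 members higher and 1 lower in CA3 than in CA1, and all 8 genes of a CA1 pyramidal cell list were lower in CA3 than in CA1. The CA3 pyramidal cell list summed to 634 in the CA3 AOIs of control mouse 1175, the lowest of the 10 mice, against 667 to 1172 in the other 9, and results that rest on CA3 were also computed without the 2 CA3 AOIs of that mouse.

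Mobp, Cldn11 and Cnp had the largest differences between CA3 and CA1 and Mal was called in 1 of the 10 pairs of subregions, so the 250 bases before a RefSeq start of these 4 genes are shown, from GRCm38.p6 and in the direction of the gene. The Mobp stretch is chr9:120149492-120149741 on the plus strand, the Cnp stretch chr11:100574689-100574938 on the plus strand, which reaches into the annotated span of the gene, the Cldn11 stretch chr3:31149670-31149919 on the plus strand and the Mal stretch chr2:127656696-127656945 on the minus strand. Capitals mark matches on either strand to ACAAAG or ACAATG, cores bound by Sox10 and its relatives, to CTGGNAC, the core bound by Myrf, and to the E-box CAGCTG.
Mobp: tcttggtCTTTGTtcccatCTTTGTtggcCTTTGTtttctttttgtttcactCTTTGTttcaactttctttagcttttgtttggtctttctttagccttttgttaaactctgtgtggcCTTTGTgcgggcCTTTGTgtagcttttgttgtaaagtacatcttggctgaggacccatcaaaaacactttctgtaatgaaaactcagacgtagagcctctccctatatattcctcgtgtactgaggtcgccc
Cnp: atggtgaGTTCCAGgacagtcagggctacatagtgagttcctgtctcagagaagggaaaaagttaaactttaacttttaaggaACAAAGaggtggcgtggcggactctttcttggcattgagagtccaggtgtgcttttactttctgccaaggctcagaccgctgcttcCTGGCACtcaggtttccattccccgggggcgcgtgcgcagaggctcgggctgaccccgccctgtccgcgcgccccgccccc
Cldn11: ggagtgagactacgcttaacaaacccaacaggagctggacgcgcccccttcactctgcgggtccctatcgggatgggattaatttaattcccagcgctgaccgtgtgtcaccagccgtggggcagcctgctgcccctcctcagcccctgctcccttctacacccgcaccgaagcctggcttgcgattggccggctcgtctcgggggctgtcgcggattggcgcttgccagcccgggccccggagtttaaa
Mal: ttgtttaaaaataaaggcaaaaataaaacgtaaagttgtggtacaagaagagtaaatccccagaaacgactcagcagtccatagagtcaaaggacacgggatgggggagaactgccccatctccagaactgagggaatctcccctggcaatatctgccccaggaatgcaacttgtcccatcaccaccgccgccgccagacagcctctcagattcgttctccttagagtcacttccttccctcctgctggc

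Promoter windows of 300 bases, from 250 before to 50 after the start, were searched on both strands for 8 of the 9 genes, which have 10 windows because Mag has 3. No 2 matches in a window overlapped, and since the Mag windows overlap in part, the 10 windows are not independent. ACAAAG lay in 5 of the 10 windows (Mobp, Cnp, Opalin and 2 of Mag), against 18.7% of 32851 windows of all genes. CTGGNAC lay in 5 windows (Cnp, Mog, Opalin and 2 of Mag), against 19.3% of all windows. ACAATG was found in 1 window (Ermn; 12.6% of all), CAGCTG in 1 (Opalin; 16.3%) and the TATA motif TATAAA in none (13.6% of all). The Mobp window held 6 matches to ACAAAG, all read as CTTTGT on the printed strand and lying between 243 and 120 bases before the start, and it was the 1 window of 32851 with at least 6. The cutoff of 6 was the count of this window itself, so this is a description and not a test. The Cldn11 and Mal windows held no match to the 5 motifs. These matches describe letters in a window and not binding.

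Across the 5 subregions the mean of every member was lowest in the choroid plexus or in CA1 and highest in MC or SS, and for all members but Mal the CA3 mean lay below both cortical means. The levels are given role by role, as the signal averaged first within a mouse and then over mice (SD over mice, n = 9 for CP and 10 elsewhere), and signals of different genes are not compared, since each probe has its own response.

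Of the compact myelin genes, Mbp (chr18:82475091-82585637) encodes myelin basic protein, which holds the cytoplasmic faces of the membrane together. It averaged 63.4 ± 4.33 in CP, 81.5 ± 16.02 in CA3, 73.8 ± 11.6 in CA1, 122 ± 22.7 in MC and 130 ± 35.4 in SS. The lowest, median and highest mouse were 57.2, 63.7 and 69.9 in CP, against 96.7, 128 and 217 in SS, so the CP and SS mice did not overlap.
Mobp (chr9:120149742-120181488) encodes myelin-associated oligodendrocyte basic protein, another protein of the compacted faces. It averaged 54.2 ± 5.95 in CP, 160 ± 38.6 in CA3, 77.2 ± 28.8 in CA1, 222 ± 50.3 in MC and 261 ± 92.4 in SS. Its lowest, median and highest mouse were 118, 154 and 257 in CA3, against 44.5, 72.4 and 146 in CA1, where 1 mouse, 1170 at 146, came within the range of CA3.
Mal (chr2:127633226-127656695), a membrane protein of lipid rafts in myelin and in several epithelia, averaged 13.4 ± 2.79 in CP, 18.0 ± 3.17 in CA3, 14.7 ± 5.52 in CA1, 18.5 ± 4.16 in MC and 16.1 ± 4.41 in SS. Relative to the negative probe of each AOI its mean was 0.998 in CP and 1.27 in CA3, the lowest and highest subregion by that measure. Mal thus stayed close to background in every subregion.

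Cldn11 (chr3:31149920-31164326) encodes the claudin that forms the tight junctions between turns of the sheath. It averaged 34.4 ± 6.16 in CP, 48.8 ± 16.7 in CA3, 27.2 ± 8.13 in CA1, 63.8 ± 13.3 in MC and 73.3 ± 20.8 in SS, with its lowest mean in CA1 and not in CP.
Cnp (chr11:100574909-100591875) encodes the phosphodiesterase of non-compact myelin. It averaged 43.5 ± 8.50 in CP, 83.1 ± 14.9 in CA3, 48.6 ± 11.7 in CA1, 112 ± 22.2 in MC and 112 ± 24.9 in SS. Its lowest, median and highest mouse were 62.7, 80.4 and 105 in CA3, against 31.9, 47.7 and 69.0 in CA1.

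Mag (chr7:30899175-30914922) is an adhesion protein of the layer next to the axon, and Mog (chr17:37010740-37023398) sits on the outermost surface of the sheath. Mog averaged 21.5 ± 4.52 in CP, 35.99 ± 6.87 in CA3, 27.1 ± 7.98 in CA1, 47.2 ± 9.001 in MC and 46.7 ± 12.5 in SS. Mag averaged 30.4 ± 6.98 in CA3, 24.2 ± 5.91 in CA1, 36.6 ± 7.40 in MC and 39.2 ± 4.75 in SS. In CP its mean of 30.9 ± 29.0 included control mouse 1182, at 108 in the single CP AOI of that mouse, while the other 8 mice lay at 15.5 to 25.7. That AOI held 39 counts of Mag.
Opalin (chr19:41061959-41077113) is a sialylated surface protein found in mature oligodendrocytes. It averaged 18.8 ± 3.56 in CP, 29.1 ± 5.63 in CA3, 24.6 ± 4.80 in CA1, 37.3 ± 4.18 in MC and 40.8 ± 6.94 in SS. Ermn (chr2:58045115-58052864), the actin-binding protein ermin of late oligodendrocytes, averaged 21.4 ± 6.57 in CP, 29.7 ± 6.68 in CA3, 22.0 ± 5.56 in CA1, 42.8 ± 6.58 in MC and 44.4 ± 7.85 in SS. The range over mice reached into that of the negative probe in CP and CA1 for Opalin, Ermn and Mog. It did so in CP and CA3 for Mag and in CA1 for Cldn11.

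**Figure D1:**
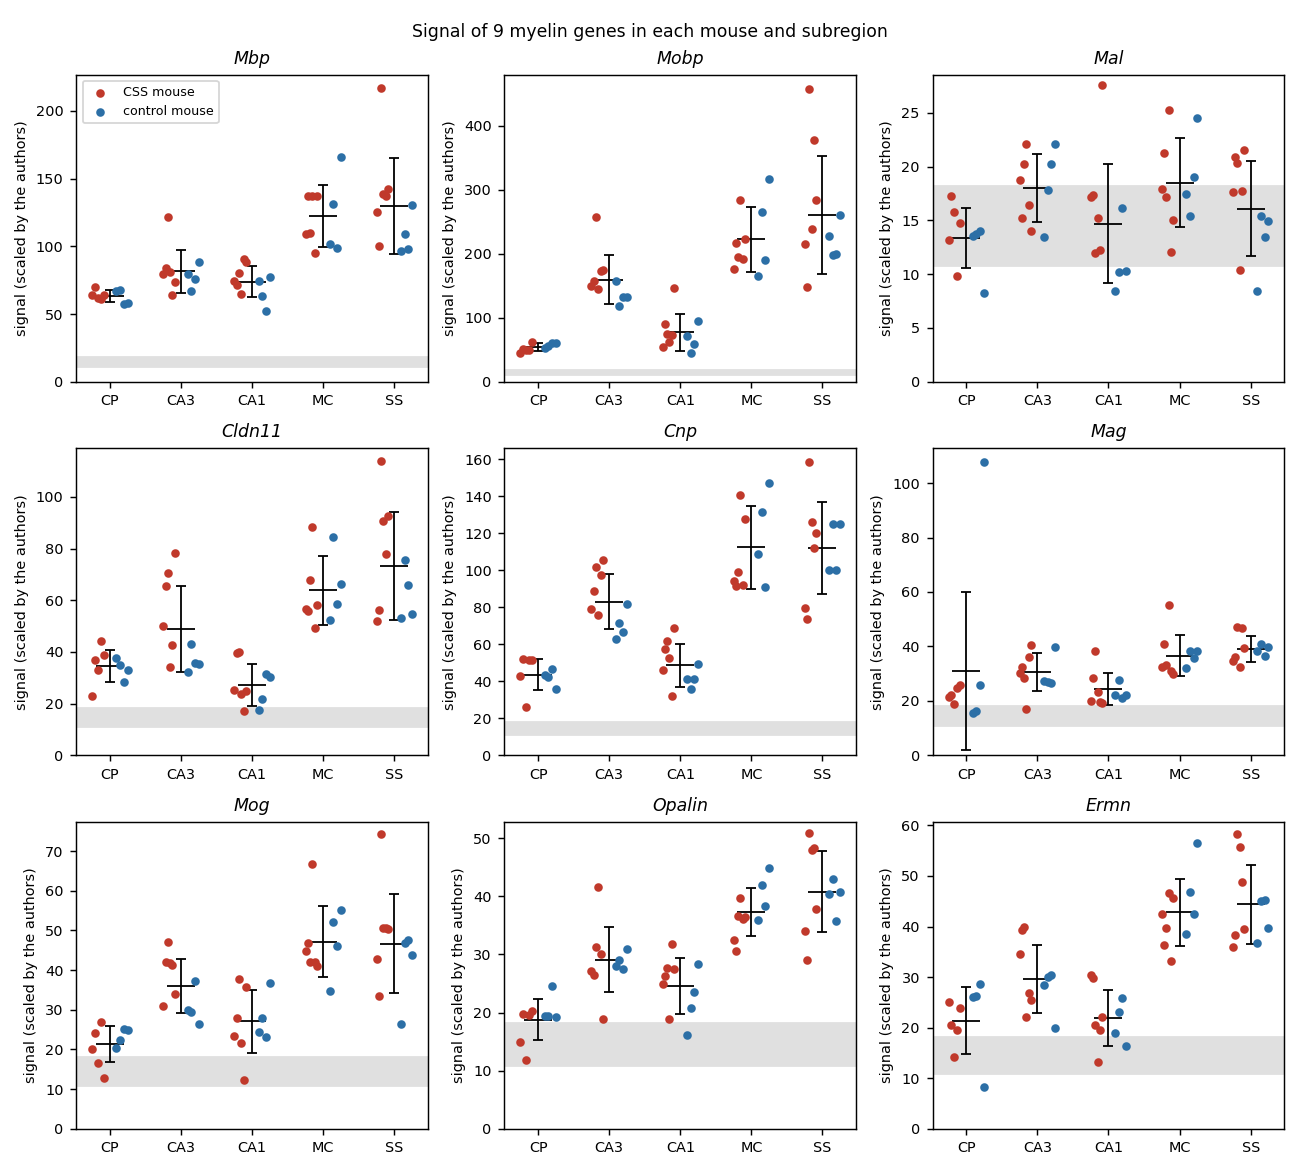
Signal of each gene, 1 panel a gene with its own axis from 0, in each mouse (red, CSS; blue, control) and subregion; the bar and whiskers are the mean ± SD over mice and the grey band is the range of the negative probe over AOIs, 10.785 to 18.143. The MC and SS means lie above the CP and CA1 means for every gene, the Mal points sit in and around the band, and a single control mouse stands at 108 for Mag in CP.

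The order of the subregions was tested gene by gene with limma on log2(signal + 1), within mice and with Benjamini-Hochberg adjustment over all 19962 genes; a gene was called at an adjusted p under 0.05. Of the 90 combinations of a member and a pair of subregions, 61 were called. Between CP and CA1 1 member was called, Mobp, at a log2 difference of -0.45 (SE 0.13, n = 9 mice), while 41.9% of all genes were called and 25.3% were called lower between these areas. CP was lower than CA3 for 7 members (37.2% of all genes called and 20.4% called lower; not Mal and Mag). It was lower than MC for all 9 (39.4% and 16.4%) and lower than SS for 8 (38.2% and 14.6%; not Mal). CA3 was lower than MC for 7 (31.7% called and 6.41% lower; not Mal and Mag) and than SS for 8 (30.6% and 4.31%; not Mal). CA1 was lower than MC for 8 (47.6% and 14.9%) and than SS for 8 (43.1% and 10.2%), in both not Mal. MC and SS differed for none. Not all of these calls held under the alternatives. That of Mog between CA3 and SS (adjusted p = 0.0339 from limma) held in 9 of 20 and was lost, among others, without mouse 1152, 1162, 1168, 1169, 1170, 1175 or 1182, with adjusted p up to 0.237. That of Mag between CP and MC held in 12 of 18 and was lost without mouse 1151, 1152, 1157, 1162, 1163 or 1168, and that between CP and SS held in 14 of 18 and was lost without 1151, 1157, 1162 or 1168. That of Cldn11 between CP and CA3 held in 13 of 19 and was lost, among others, without mouse 1152, 1157, 1162 or 1170. Between CA3 and MC that of Cldn11 held in 18 of 20 and was lost, among others, without 1163. That of Ermn between CP and CA3 was lost without mouse 1162. Mobp between CP and CA1 and Mbp between CP and CA3 lost their calls with quantile normalization, at -0.04 and -0.11, and that of Mobp was also lost with the 75th percentile. That of Mal between CP and MC was lost after subtraction of the negative probe (adjusted p = 0.0829).

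Within the hippocampus the question was whether CA3 and CA1 carry the same amount of myelin transcripts. All 9 members were above 0 in CA3 minus CA1, with a median log2 difference of 0.42 against 0.0035 over all genes, and 5 were called higher; 17.7% of all genes were called and 5.04% were called higher. Mobp was 2.09 times as high in CA3 (log2 1.06, SE 0.11), Cldn11 1.77 times (0.82, SE 0.13) and Cnp 1.74 times (0.80, SE 0.10), each higher in CA3 in 10 of 10 mice. Their adjusted p-values from limma were 6.3e-09 for Mobp, 7.02e-06 for Cldn11 and 1.1e-07 for Cnp. Ermn rose by 0.42 (SE 0.13, adjusted p = 0.0163, 10 of 10 mice) and Mog by 0.44 (SE 0.15, adjusted p = 0.0353, 8 of 10 mice).
Mbp was not called, at 0.12 with a 95% interval of -0.07 to 0.32, but was called with quantile normalization (0.29, adjusted p = 0.0127 from limma), with scaling to the 75th percentile (0.28) and with edgeR (0.23), within a range of adjusted p from 0.0127 to 0.700. The interval of Mobp, 0.83 to 1.29, lies wholly above that of Mbp; the difference between the genes was not itself tested. Mal (0.32), Mag (0.32) and Opalin (0.25) were also not called, with intervals of -0.03 to 0.68, 0.03 to 0.61 and -0.04 to 0.53.
The call of Mog was lost without any of the mice 1152, 1157, 1162, 1163, 1169 or 1175, and after subtraction of the negative probe (adjusted p = 0.0927 from limma). Leaving out the 2 CA3 AOIs of mouse 1175 is here the same fit as leaving out that mouse (adjusted p = 0.0787 from limma). The adjusted p of Mog ran from 0.00143 to 0.128 over 20 alternatives, which hold that fit under both names. The call of Ermn was lost without CSS mouse 1162 (0.0599) and without the pairing by mouse (0.0609), within a range of 0.00104 to 0.0609.

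Other genes of the lineage were summarised by lists. Of 39 other oligodendrocyte genes, 11 were called higher and 2 lower in CA3, with a median of 0.23. The small heat shock protein gene Cryab was higher by 0.84 (SE 0.14, adjusted p = 3.77e-05). Of 11 transcription factors of the lineage 1 was called, Olig1, higher by 0.83 (SE 0.11, adjusted p = 5.55e-07); Sox10 stood at 0.27 (adjusted p = 0.131) and Myrf at 0.33 (adjusted p = 0.297). Of 14 precursor genes 1 was higher, Lhfpl3, and 1 lower, Tnr, at 0.43 and -0.38. Of 18 genes of sterol and myelin lipid synthesis 6 were higher and none lower, among them Hmgcs1 at 0.68 and Sqle at 0.57, both of the cholesterol pathway, which neurons and astrocytes also use. Of 17 genes of the node of Ranvier and of axons 6 were higher and 7 lower, with the potassium channel gene Kcna1 at 1.09 and Kcnq3 at -1.29. Of 6 peripheral myelin genes none was called.

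Other cell types moved with this comparison too. Of 15 astrocyte genes 8 were higher and 1 lower in CA3, and the summed signal of the list ran from 960 to 1785 in the CA3 of the 10 mice, against 698 to 1280 in CA1. Of 14 general neuron genes 7 were higher and 4 lower, with sums of 5828 to 14867 in CA3 and 4903 to 9343 in CA1. Of 14 microglia genes none was called. The part of these cell types in the result was not tested. When the AOIs were scaled to the 75th percentile in place of the median, the median of all genes moved to 0.15, members called rose to 8 (all but Mal), and all genes turned from 1007 higher and 2528 lower to 2525 higher and 1442 lower. The members' median was then 0.57.

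The hippocampal fields were also set against the cortex. In CA1 minus cortex, with MC and SS averaged per mouse, 8 members were called lower and none higher, with all 9 below 0; 48.3% of all genes were called and 14.4% were called lower. The median of the members was -0.78, against -0.04 for all genes. Mobp averaged 77.2 ± 28.8 in CA1 and 242 ± 49.1 in the cortex (SD, n = 10 mice) and fell by 1.63 on the log2 scale (SE 0.10, adjusted p = 6.36e-15). Cldn11 averaged 27.2 ± 8.13 in CA1 and 68.5 ± 14.4 in the cortex (log2 -1.32, SE 0.11). Cnp averaged 48.6 ± 11.7 in CA1 and 112 ± 20.2 in the cortex (log2 -1.20, SE 0.09). Ermn stood at -0.99, Mog at -0.78, Mbp at -0.73, Opalin at -0.65 and Mag at -0.64, and each of the 8 called members was lower in CA1 in 10 of 10 mice. Mal stood at -0.25 (interval -0.54 to 0.05) and was not called, but was called in 5 of 19 alternatives: with the 75th percentile (-0.65, adjusted p = 3.12e-04 from limma), with mouse as a random block (-0.32), with edgeR (-0.48), with DESeq2 (-0.43) and without mouse 1170 (-0.34). The filter on low signal, 1 of the 19, removed Mal and so did not test it.
In CA3 minus cortex 8 members were called lower, again all but Mal, where 33.8% of all genes were called and 6.23% were called lower, with a median of -0.40. The order of the genes was another than in CA1: Mbp had the largest difference at -0.61 (SE 0.08), followed by Mobp at -0.57 (SE 0.09) and Ermn at -0.56 (SE 0.11), while Cnp stood at -0.39 (SE 0.09) and Mag at -0.32 (SE 0.11). These comparisons share the cortex AOIs, so their values are given side by side only. The call of Mag (adjusted p = 0.0277 from limma) was lost without mouse 1162, 1163, 1168 or 1175 and after subtraction of the negative probe. Its adjusted p ran from 2.85e-05 to 0.101 over 20 alternatives, in which leaving out the 2 CA3 AOIs of mouse 1175 repeats the fit without that mouse. The call of Mog (adjusted p = 0.00559 from limma) was lost only after subtraction of the negative probe, at 0.0566.

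**Figure D2:**
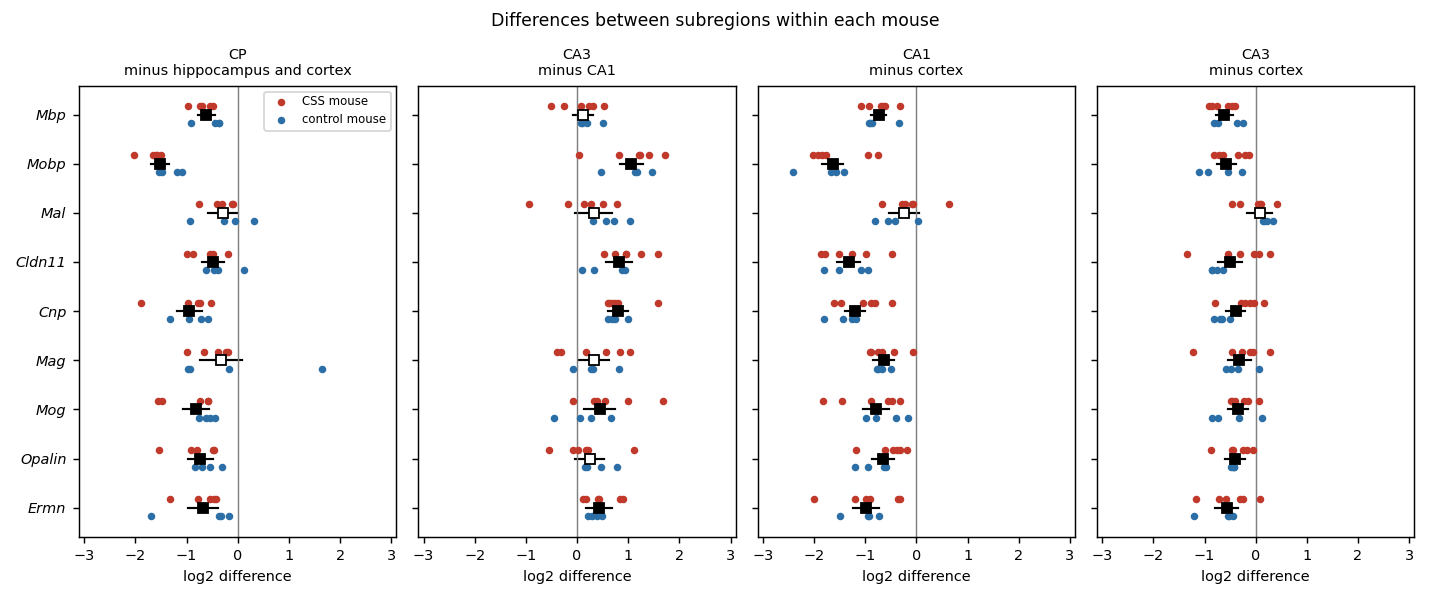
Log2 differences between subregions for each of the 9 genes (rows); small points are single mice (red, CSS; blue, control), squares the fitted difference and lines its 95% interval, with filled squares for an adjusted p under 0.05. In CA3 minus CA1 the squares lie right of 0 from 0.12 for Mbp to 1.06 for Mobp, in CA1 minus cortex all lie left of 0, and in the CP panel the Mag point of control mouse 1182 stands alone on the right.

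Scaling and cell makeup move with these contrasts as well. With the 75th percentile the median of all genes moved to -0.45 in CA1 minus cortex and to -0.27 in CA3 minus cortex, and the calls over all genes turned from 6769 higher and 2877 lower to 3599 higher and 12243 lower, and from 5494 higher and 1244 lower to 3371 higher and 9095 lower. With quantile normalization they were 3156 higher and 2691 lower, and 2365 higher and 1892 lower, and the members' medians were -1.22 and -0.85. The median of the members lay below the median of all genes under each of these scalings, while Mal stood at 0.08 in CA3 minus cortex with the authors' scaling. Of 39 other oligodendrocyte genes 25 were lower and 3 higher in CA1 than in the cortex, and 17 were lower and 4 higher in CA3 than in the cortex. Cryab fell by 1.504 in CA1, while Nfasc, a cell adhesion gene of axons and glia at the node, rose by 0.81. Sox10 fell by 0.69 and Olig1 by 0.86 in CA1, against a rise of 0.51 for Olig2. Of 15 astrocyte genes 10 were lower and 2 higher in CA1 than in the cortex, and of 12 endothelial genes 8 were lower. Astrocyte sums were 698 to 1280 in CA1, against 994 to 1780 in MC and 924 to 1599 in SS, and the part of these cells in the result was not tested.

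MC and SS gave no called gene of 19962 (limma, 0% of all genes), with 1100 genes at an unadjusted p under 0.05 and none of the members among them. The members' differences, MC minus SS, ran from -0.16 (Mobp, interval -0.42 to 0.09) to 0.23 (Mal, -0.08 to 0.54). The mice were mixed in sign, with 3 to 7 of 10 above 0 for every member. The alternatives, edgeR and DESeq2 among them, called no member.

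The choroid plexus was set against the mean of the other 4 subregions of each mouse (n = 9 mice, since mouse 1169 has no CP AOI). Of the 9 members 7 were called lower, all 9 were below 0 with a median of -0.68, and 40.2% of all genes were called and 19.6% were called lower. Mobp averaged 54.2 ± 5.95 in CP and 177 ± 34.5 elsewhere (SD, n = 9 mice), a log2 difference of -1.52 (SE 0.08, adjusted p = 4.32e-12 from limma). Cnp averaged 43.5 ± 8.50 in CP and 89.6 ± 13.3 elsewhere (-0.94, SE 0.11). Mog stood at -0.81, Opalin at -0.73, Ermn at -0.68, Mbp at -0.61 and Cldn11 at -0.49.
Mag was not called, at -0.32 (interval -0.73 to 0.09); 8 of 9 mice were lower in CP and control mouse 1182 was higher by 1.65. Mag was called without that mouse (-0.57, adjusted p = 5.61e-04 from limma), with mouse as a random block and with edgeR, within a range of 3.74e-04 to 0.427 over 19 alternatives. The lowest value was that of the random block, in which single AOIs are the values. Mal was not called either, at -0.29 (interval -0.57 to -0.01), but was called after subtraction of the negative probe (-0.55, adjusted p = 0.0228 from limma), with edgeR (-0.34) and without mouse 1151 (-0.37).

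Unlike the members, several genes that mark oligodendrocytes elsewhere in the brain were high in the choroid plexus. Of 39 other oligodendrocyte genes 19 were lower and 5 higher. The tetraspanin gene Cd9 was higher by 3.31 (SE 0.09), with a mean signal of 300 in CP and 29.6 elsewhere, the transferrin gene Trf by 2.60 (SE 0.08), Cryab by 2.35 (SE 0.07) and the carbonic anhydrase gene Car2 by 2.14 (SE 0.06). Of 11 transcription factors of the lineage 7 were lower, with Olig1 at -1.62 and Sox10 at -0.63, and 2 were higher, Tcf7l2 at 0.57 and Zfp536 at 0.54. Of 14 precursor genes 3 were higher and 3 lower, with Pdgfra, which cells of connective tissue also express, at 1.24. All 14 neuron genes were lower, with sums of 371 to 487 in CP, and 13 of 14 choroid plexus epithelium genes and 6 of 8 ependyma genes were higher. The part of these cells in the members' signal in CP was not tested.

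Among AOIs of the same subregion the members rose and fell together in the cortex, and only weakly elsewhere. After each subregion's mean was subtracted, the 36 pairs of members had a median Pearson r of 0.33 over 90 AOIs, with the highest value for Mbp and Mobp (0.69) and the lowest for Mal and Mag (-0.13). Within single subregions the median r of the 36 pairs was 0.14 in CP (16 AOIs), 0.22 in CA3 (18), 0.25 in CA1 (18), 0.57 in MC (19) and 0.68 in SS (19). Single pairs ran from -0.50 to 0.49 in CP, -0.37 to 0.78 in CA3 and -0.17 to 0.72 in CA1. They ran from 0.06 to 0.86 in MC and 0.003 to 0.85 in SS. Cnp followed the mean of the other 8 members most closely (r = 0.77), then Mog (0.69), Mobp (0.68), Cldn11 (0.67) and Mbp (0.66), with Ermn (0.48), Opalin (0.37), Mag (0.29) and Mal (0.27) behind. AOIs of 1 mouse share the animal, and how far the count depth of a gene sets its value was not tested, so these are descriptions.

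The mean of the members was also set against other lists and technical measures of the same AOIs. Its r with the mean of the 39 other oligodendrocyte genes was 0.93 in SS, 0.88 in MC, 0.80 in CA1, 0.78 in CA3 and 0.11 in CP. With the neuron list it was 0.01 over all 90 AOIs and between -0.19 and 0.38 within subregions. With the astrocyte list it was 0.21 over all AOIs and 0.44 in SS. With the microglia list it was 0.11 over all AOIs, 0.56 in SS and 0.49 in CA3, and with the endothelium list 0.19, 0.60 and 0.58. In MC, CA1 and CP it was -0.29, -0.11 and -0.13 with the microglia list. With the endothelium list it was 0.26, -0.35 and -0.28 there. With the log2 total count it was -0.07 and with the ratio of gene median to negative probe -0.02. In SS and CA3 the AOIs rich in the 9 members were thus richer in microglia and endothelial genes as well as in other oligodendrocyte genes. In CA1 and CP the sign was the other way for both the microglia and the endothelium list. The part of these cells was not tested.

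By a correlation of this kind with the mean of the 9 members, over 90 AOIs and among 7098 genes of at least 2 times the mean negative probe, the genes most like the members included Trf (r = 0.70), Ndrg1 (0.61), Car2 (0.57), Ptgds (0.56), Apod (0.55), Csrp1 (0.55), Qdpr (0.54), Cryab (0.52) and Plekhb1 (0.49). Over all 7098 genes the median r was 0.02 and the 95th percentile 0.20. Of the genes named, Ptgds, prostaglandin D2 synthase, and Csrp1, a LIM domain protein of the cytoskeleton, were on none of the 19 lists, and the others were on the list of other oligodendrocyte genes.

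**Figure D3:**
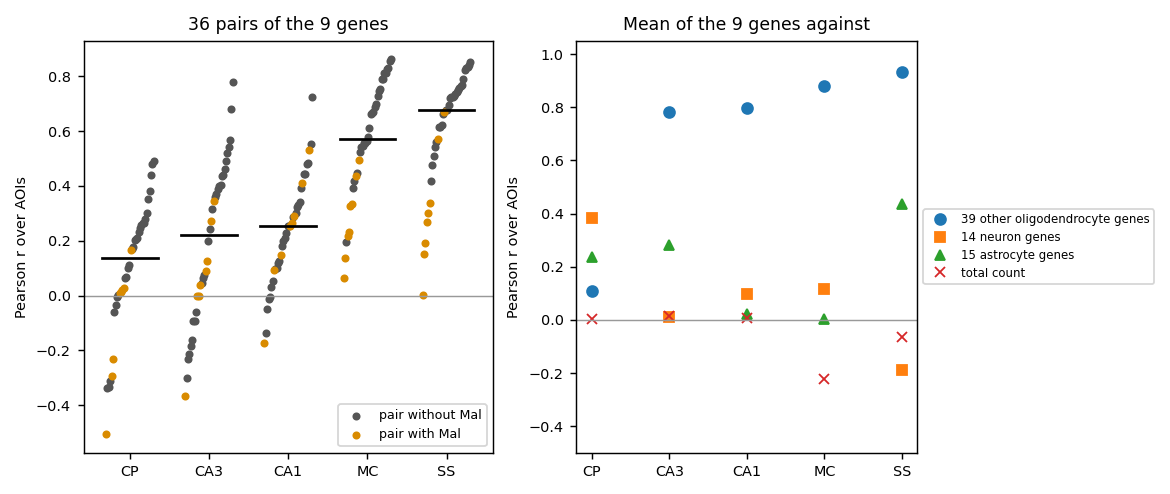
Left, Pearson r over the AOIs of a subregion for each of the 36 pairs of the 9 genes, sorted within a subregion (orange, pairs with Mal; lines, medians from 0.14 in CP to 0.68 in SS). Right, r over the same AOIs between the mean of the 9 genes and the means of 3 marker lists or the log2 total count, with the other oligodendrocyte genes at 0.78 to 0.93 outside CP and at 0.11 in CP.

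Subregion accounted for most of the spread of Mobp over the 90 AOIs, 75.9% of the variance of log2(signal + 1), and for 69.7% of Cnp, 60.5% of Mbp, 56.1% of Cldn11, 54.7% of Ermn, 54.0% of Opalin, 52.6% of Mog, 30.5% of Mag and 13.4% of Mal. The mouse accounted for a further 4.42% (Cnp) to 16.1% (Mal). Over 7106 genes above the same minimum signal the medians were 57.1% for subregion and 11.4% for mouse. A single AOI, p16 low in the SS of CSS mouse 1162, held the highest value of 7 members: Mobp was at 584, Mbp at 253, Cnp at 178, Cldn11 at 123, Mog at 81.2, Ermn at 63.6 and Opalin at 60.9. The highest Mag was in the CP of control mouse 1182 and the highest Mal in an MC AOI of that mouse.

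The p16 labels were compared within mice, over the subregions of hippocampus and cortex in which a mouse has both labels. No member was called, where 77 genes (0.386% of all) were called, all higher. The members' differences, p16 high minus low, ran from -0.10 (Cldn11) to 0.0035 (Mog), with a median of -0.06 against 0.03 for all genes, and no member had an unadjusted p under 0.05. With the ratio of gene median to negative probe as a covariate 8 of 9 members stood above 0, with a median of 0.17 against 0.06 for all genes; Mag was then at 0.40 and Cnp at 0.40 (adjusted p = 0.0615 from limma), and none was called. The 95% interval of Mobp ran from -0.18 to 0.12 and that of Mbp from -0.19 to 0.07. Mobp averaged 183 ± 43.0 where p16 was high and 198 ± 64.4 where it was low, and Mbp 100 ± 14.4 and 107 ± 21.9 (SD, n = 10 mice).
The 39 other oligodendrocyte genes, 11 transcription factors, 14 precursor genes and 18 lipid genes had no call either. Of 17 genes of the node and axon 1 was called, the sodium channel gene Scn8a, higher by 0.21 (SE 0.05, adjusted p = 0.0474), and 14 of the 17 were above 0. Of 14 neuron genes 13 were above 0 with none called, and in CA3 the neuron sums ran from 6567 to 18867 in p16 high AOIs, against 5088 to 11779 in p16 low AOIs.

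Within single subregions no member was called. In CA1, where 18 genes (0.0902%) were called, 8 of 9 members were above 0 with a median of 0.20. In CA3 all 9 were below 0 (median -0.08), in MC 4 were above 0 (median -0.01), in SS 1 was (median -0.10) and in CP 4 were (median -0.05), and no gene of the table was called in these areas (0%).
The largest difference was that of Mag in SS, at -0.57 (interval -0.85 to -0.29, adjusted p = 0.945 from limma). Over 19 alternatives the Mag difference in SS ran from -1.06 to -0.46 and its adjusted p from 0.0521 to 0.999985, and none called it. Its signal in p16 high SS AOIs was 22.6, 30.1, 41.9, 32.5 and 25.2 in CSS mice 1152, 1157, 1162, 1169 and 1170, against 46.3, 42.3, 52.1, 60.7 and 53.3 in their p16 low AOIs. In control mice 1151, 1168, 1175 and 1182 it was 39.7, 42.5, 26.3 and 28.7 in p16 high AOIs, against 36.8, 39.5, 47.0 and 51.0 in p16 low AOIs. The p16 high AOI was thus lower in 7 of 9 mice, and 898 genes of the table had an unadjusted p under 0.05 in SS.
Mobp was at -0.37 in SS and at -0.47 in CP, lower in 7 of 9 and in 6 of 7 mice, and passed no adjusted test (adjusted p = 0.945 and 0.889 from limma).

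Seen pair by pair, the AOIs differed by more than these means show. In the 41 pairs of p16 high and low AOIs from the same mouse and subregion, the mean log2 difference of the 9 members ran from -0.76 to 0.93, with a median size of 0.32. In 3 pairs all 9 members were higher in the p16 high AOI and in 6 pairs all 9 were lower. Of these 9 pairs 5 lay in SS, 3 in MC and 1 in CA3. The extremes were both in SS, CSS mouse 1152 at -0.76 and control mouse 1151 at 0.93. None of the 8 pairs in CA1 or the 7 in CP had all members on 1 side.

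**Figure D4:**
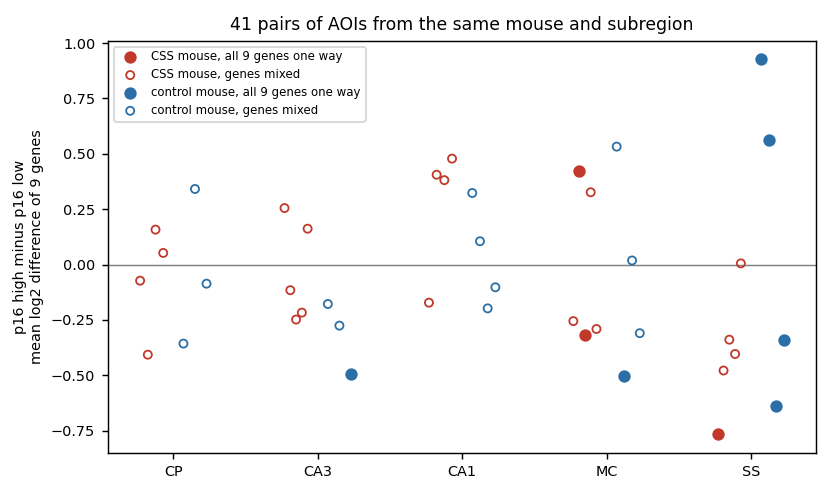
Mean log2 difference of the 9 genes, p16 high minus p16 low, in 41 pairs of AOIs (red, CSS mouse; blue, control mouse); filled points are pairs in which all 9 genes moved one way. The points scatter on both sides of 0 in every subregion, from -0.76 to 0.93, both in SS.

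The stress groups were compared between mice, with each mouse's values centred within subregion and p16 label. Over hippocampus and cortex no member and no gene of the table was called (0%), with 391 genes at an unadjusted p under 0.05 in limma; edgeR and DESeq2 called no gene either. All 9 members were above 0 in CSS minus control, from 0.0022 (Opalin) to 0.27 (Cldn11), with a median of 0.14 against -0.01 for all genes. Cldn11 (0.27, interval 0.01 to 0.54) and Mal (0.26, 0.02 to 0.50) had an unadjusted p under 0.05. The median of the members was 0.09 without CSS mouse 1162 and 0.09 without control mouse 1151, the mice with the highest and lowest mean of the members, and 0.21 without control mouse 1182. The mean deviation of the 9 members over the hippocampus and cortex AOIs of a mouse was -0.09, 0.01, 0.27, 0.05, 0.01 and 0.09 in CSS mice 1152, 1157, 1162, 1163, 1169 and 1170, against -0.27, -0.05, -0.10 and 0.10 in control mice 1151, 1168, 1175 and 1182. The groups overlap, since control mouse 1182 is above 5 of the 6 CSS mice.
The interval of Mbp ran from -0.13 to 0.47 and that of Mobp from -0.17 to 0.55.

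By subregion, the members' median was 0.23 in CA3, 0.23 in CA1, -0.06 in MC, 0.26 in SS and 0.01 in CP, with no gene of the table called in any of them (0% each). The largest value was that of Cldn11 in CA3. Its signal there had a lowest, median and highest mouse of 34.3, 57.7 and 78.2 in the 6 CSS mice, against 32.4, 43.2, 35.6 and 35.3 in control mice 1151, 1168, 1175 and 1182. Only 2 of the 6 CSS mice, 1163 and 1169, lay within the control range, and the fitted difference was 0.67 (interval 0.25 to 1.08, adjusted p = 0.9998 from limma).
Cnp in CA3 had 76.0, 93.3 and 105 in CSS mice, against 62.7, 71.3, 66.5 and 81.6 in control mice, a fitted difference of 0.40 (interval 0.01 to 0.79, adjusted p = 0.9998 from limma). The groups of Cnp overlapped on this scale.
In SS, Mbp (0.40) and Mal (0.51) had an unadjusted p under 0.05, as did 737 of all genes. Mbp had a lowest, median and highest mouse of 100, 138 and 217 in the CSS mice there, against 96.7, 109, 98.1 and 131 in control mice 1151, 1168, 1175 and 1182. In CP the Mag difference was -0.37 (interval -1.05 to 0.31), with control mouse 1182 at 108; without that mouse it was 0.26, so its sign rested on 1 AOI.

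**Figure D5:**
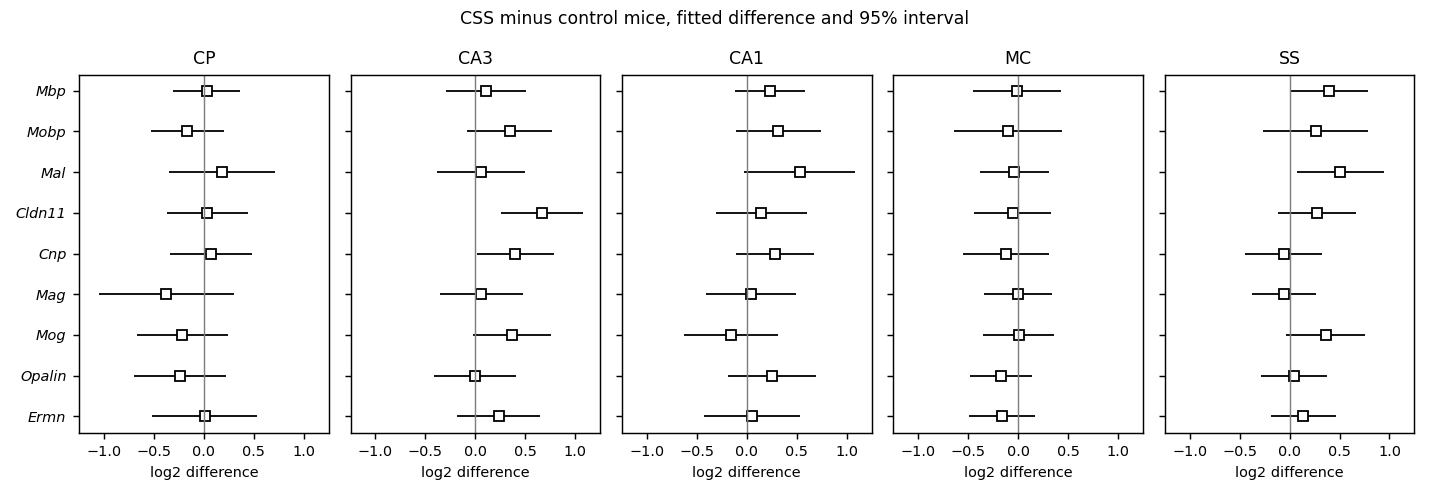
Fitted log2 difference, CSS minus control mice, of each of the 9 genes in each subregion, with its 95% interval as a line; open squares mark that no gene was called. Most intervals cross 0, and the square farthest to the right is Cldn11 in CA3 at 0.67.

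No marker list had a called gene in this comparison. The sums of the 39 other oligodendrocyte genes in CA3 ran from 1361 to 1816 in CSS mice, against 1240 to 1605 in control mice, and 24 of the 39 were above 0 over hippocampus and cortex, with a median of 0.04. Astrocyte genes had 13 of 15 above 0, with a median of 0.08 and none called, and neuron genes had 9 of 14 above 0.
Whether the other comparisons depended on stress was tested directly. The p16 difference of the members did not pass the test in CSS against control mice (0 of 9, 0% of all genes), and the widest gap was that of Opalin, with a mean p16 difference of -0.25 in CSS mice and 0.16 in control mice (interval of the gap -0.91 to 0.09). The difference between hippocampus and cortex passed for no member either (0% of all genes). Cnp had the widest gap, with a mean of -0.63 in CSS mice and -1.04 in control mice (interval of the gap -0.08 to 0.90, adjusted p = 0.904 from limma).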

How the data were processed

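The authors deposited 1 table of GeoMx signal for 19962 genes and a negative probe in 90 AOIs, scaled to an equal gene median; per the submitters' processing notes the genome build is mm10, with software not given in the sources used here. The low values of the deposited signal were whole multiples of a step per AOI, so counts could be recovered (at least 99.985% of values whole within 0.01, 184469 to 2098984 counts per AOI). Intervals are 95% confidence intervals of the fitted mean difference and do not cover the spread of single mice. AOIs were grouped by the labels. Values were averaged per mouse and arm on log2(signal + 1) and fitted with limma 3.58.1 in R 4.3.3 (trend, 2-sided, Benjamini-Hochberg over 19962 genes, threshold 0.05), with mouse as a block for comparisons within mice; the stress groups were compared between mice. The pairing rests on the mouse number in the labels, and over 41 pairs of AOIs the deviations of paired AOIs from their group means had a median r of 0.08, with 16 above 0.1. The test was also run on simulated counts with an assumed spread, in which only genes above 2 times the mean negative probe were changed. Of 1.5-fold changes it recovered 74% in CA3 minus CA1. Over hippocampus and cortex it recovered 99% for p16 and 81% for stress. Each run changed 100 genes by 1.5-fold and 100 by 2-fold, and the adjusted threshold depends on how many genes change. These shares hold for the assumed spread and that number of changed genes. They are not the power of the p16 and stress tests on the data, and they do not cover genes near background, such as Mal.

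Alternatives were a pseudocount of 10, a filter on low signal, quantile and 75th percentile scaling, and subtraction of the negative probe. Others were no block or mouse as a random block, and, for p16 and stress, the ratio of gene median to negative probe as a covariate. The random block was fitted over all single AOIs, so AOIs of the same mouse and subregion entered as separate values. Recovered counts were fitted with edgeR 4.0.16 and DESeq2 1.42.0, each mouse was left out, and mouse 1175 was used without its CA3 AOIs. Where CA3 alone was set against another area within mice, this last fit equals the one without mouse 1175. Named genes were the 9 members, up to 4 genes of a list with the smallest p in a comparison, and the 10 genes most correlated with the members' mean. The members and lists were chosen with earlier results of these data known. The promoter sequence of Mbp is not used here. One gene that the rule names is not reported here.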

Additional observations from a re-analysis of the deposited data

Results flagged for a closer look

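In each subregion and stress group of 4 to 6 mice, the highest and the lowest mouse were compared with the nearest of the others by Dixon's ratio. Of 90 such groups of a gene, 11 had a mouse standing apart. The ratio was taken on unlogged signal and the genes share the same mice, so this count was not set against a chance rate. CSS mouse 1162 was high for Mbp in CA3 (122, next mouse 84.3) and in SS (217, next 142) and for Mobp in CA3 (257, next 174). CSS mouse 1170 was high for Mal in CA1 (27.6, next 17.4), and CSS mouse 1163 was low for Mal in SS (10.4, next 17.6) and high for Mog in MC (66.8, next 46.8).

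Among the control mice, 1182 was high for Mag in CP (108, next 25.6) and in CA3 (39.7, next 27.1) and low for Mal (8.28, next 13.5) and Ermn (8.28, next 26.1) in CP. Its CP values come from 1 AOI, in which Mag had 39 counts and Mal and Ermn 3 counts each. Control mouse 1175 was high for Opalin in CP (24.6, next 19.4).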

How the results depend on the processing

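In CA3 minus CA1 5 members were called in the fit reported; with scaling to the 75th percentile there were 8, and 3 to 6 when 1 mouse was left out, the lowest without mouse 1162. CA1 minus cortex kept 8 to 9 calls over the alternatives, CA3 minus cortex 6 to 8 and CP minus the other subregions 7 to 9. The pairwise calls, 61 in the fit reported, ran from 54 to 63 with a mouse left out, from 57 to 68 under the other alternatives, and were 61 without the replicate block. Without that pairing Ermn lost its call in CA3 minus CA1 (adjusted p = 0.0609), and so did Mog in CA3 minus SS. No member was called under any alternative for p16, stress, either stress dependence or MC minus SS. Leaving aside the 10 pairs of subregions, 3189 results of members under alternatives kept their side of the threshold, 18 passed it only under the alternative and 17 only in the fit reported; none that was called changed sign. The cause of these changes was not tested. Mal, above the negative probe in 51 of 90 AOIs, is limited by signal over background.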
